A study of Mus musculus with 17 samples.

Results

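The karyopherins and nucleoporins are the transport receptors and pore proteins through which cargo enters and leaves the nucleus. They were followed here in mouse small-intestinal organoids during differentiation with and without KPT-330, an inhibitor of the export receptor XPO1 (exportin 1). The 48 members were taken by symbol from a list of importers, importin alpha adaptors, exporters other than Xpo1, and structural proteins of the nuclear pore complex. All 48 had a row in the files, among 26422 genes listed in any library. Xpo1 itself was not a member and is given for reference.

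The organoids were grown from small-intestinal crypts of wild-type C57BL/6 mice and profiled by Seq-Well S3, a nanowell method of single-cell RNA-seq that counts unique molecular identifiers (UMIs) near the 3′ end of transcripts. ENR+CV organoids (2 libraries, day 0) were stem-cell enriched by adding CHIR99021 (C) and valproic acid (V) to a medium with EGF, noggin and R-spondin. The others were moved at day 0 to ENR+CD, in which DAPT, a blocker of Notch signalling, took the place of valproic acid and which drives cells towards the Paneth fate. ENR+CD controls had 7 libraries and ENR+CD with 160 nM KPT-330 had 8, at days 0.25, 1, 2, 3, 4 and 6. Day 6 had 2 control libraries, days 3 and 6 had 2 KPT-330 libraries each, and every other day and arm had 1. The labels number libraries of days 0.25 and 1 as replicate 1 and those of days 2 and 4 as replicate 2. At day 3 the control is replicate 2 and the KPT-330 libraries are replicates 1 and 2. A library holds cells of many pooled organoids and the labels do not say that libraries came from separate cultures. The p-values thus measure only the spread between these libraries, which may be technical. With 1 library a day and arm, differences of the drug effect between days are part of this spread.

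Receptors of the importin beta family bind cargo directly or, in the case of KPNB1, through importin alpha adaptors, and release it in the nucleus on meeting RanGTP. Exporters of the same family bind cargo together with RanGTP and release it in the cytoplasm. The pore is built from an outer ring of Y complexes, an inner ring, a membrane ring, phenylalanine-glycine (FG) proteins that line the channel, cytoplasmic filaments and a nuclear basket, and dividing cells must assemble new pores.

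The 17 libraries held 19877 cells kept by the authors of 26229 barcodes, with 531 to 1547 cells and 3458887 to 12433109 UMIs a library. The members together took 0.179% to 0.491% of a library's UMIs. Kpna2 (77 UMIs in the whole series) and Nup35 (263) were close to the limit of detection, while Kpnb1 had 34187. In 5 libraries at least 19823 genes are listed, and in the others at most 17849. The 5 are the first ENR+CV library and both arms at days 0.25 and 1. The kept cells of different libraries shared 14 barcode sequences, in 28 cells. A level below is a gene's UMI count in CPM, scaled by the library's total and the trimmed mean of M values (TMM). Levels of a set of cells in a library, such as a cell class, are CPM of that set's own UMIs, without TMM scaling. A gene is called where the adjusted p of edgeR's quasi-likelihood test is under 0.05. A lower level in a library can come from fewer cells of a type or from less RNA per cell, which sums of UMIs cannot tell apart.

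Organoids without KPT-330 lost transcripts of most members as they differentiated. Against the 4 early libraries (both ENR+CV libraries and ENR+CD at days 0.25 and 1), the 4 late ENR+CD libraries (days 3, 4 and 6) were lower in 30 of the 48 members and higher in none. That is 62.5% of members called lower, where 24.6% of the 13370 genes tested were called lower and 47.2% were called in either direction. The median log2 fold change was -0.61 over the members and -0.00 over all genes. In 24 members (50%) every late library lay below every early library, which held for 19.7% of all genes. Growth medium, day, cell make-up, the libraries with longer gene lists and the replicate number all change between the early and late sets. They cannot be told apart here. The replicate number was mostly 1 in the early and mostly 2 in the late set.

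The largest fall was in Ndc1, a transmembrane nucleoporin that anchors the pore in the nuclear envelope. Its level was 61.7 and 73.8 in the ENR+CV libraries, then 82.2, 45.7, 25.3, 16.9 and 12.9 at days 0.25, 1, 2, 3 and 4 of ENR+CD, and 18.1 and 16.4 at day 6. The early and late libraries did not overlap, with means of 65.9 ± 15.8 (SD, n = 4) and 16.1 ± 2.2 (n = 4). Its log2 fold change was -2.10 ± 0.19 (SE; adjusted p = 1.65e-05).

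Of the 11 importin beta family importers 7 were called lower, and of the 5 importin alpha adaptors 1 was. Ipo5, an importer of ribosomal proteins and histones, fell by 1.38 ± 0.17 on the log2 scale (adjusted p = 8.34e-05). Ipo7, which carries ribosomal proteins and histone H1, stood at 206 and 109 in ENR+CV, at 225, 153, 70.6, 77.4 and 56.4 at days 0.25 to 4, and at 74.7 and 73.3 at day 6, a log2 fold change of -1.37 ± 0.22. All 4 late libraries were below all 4 early ones. Kpnb1, importin beta 1, averaged 460.6 ± 148.9 early and 261.9 ± 12.2 late (n = 4 each; log2 fold change -0.88 ± 0.20, adjusted p = 0.00348). Its early libraries were far apart, from 341 to 678, and its late libraries close together. Ipo11 (-1.11), Tnpo3 (-0.52), Ipo9 (-0.50) and Ipo8 (-0.41) also fell. Tnpo3, which imports SR splicing proteins, stood at 128 and 137 in ENR+CV, at 142, 124, 99.0, 95.8 and 92.5 at days 0.25 to 4, and at 108 and 90.9 at day 6. Not called were Tnpo1 (-0.26), Tnpo2 (-0.03), Ipo4 (-0.10) and Ipo13 (-0.26). Among the adaptors, Kpna3 fell from 75.4 and 77.0 in ENR+CV through 74.5, 55.2, 37.8, 38.3 and 43.8 to 53.9 and 44.4 at day 6 (log2 fold change -0.71 ± 0.15). The other four, Kpna1 (-0.29), Kpna2 (-0.70), Kpna4 (0.01) and Kpna6 (-0.28), were not called.

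Of the 6 exporters 4 were called lower. Cse1l, which returns importin alpha to the cytoplasm, had levels of 101.5 and 67.9 in ENR+CV, 101 at day 0.25, 61.6 at day 1, 34.7 at day 2, 39.8 at day 3, 32.6 at day 4, and 36.3 and 38.7 at day 6. It fell by 1.24 ± 0.18 on the log2 scale with no overlap of early and late libraries. Xpo4 (-0.88), Xpo5 (-0.76), an exporter of microRNA precursors, and Xpo7 (-0.55) fell too. Xpot, the exporter of transfer RNA (-0.18), and Xpo6, the exporter of actin (0.06), were not called. Xpo1 fell by 1.16 ± 0.16 over the same days.

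Of the groups of pore proteins, the Y complex and the inner ring had the lowest medians. The Y complex had 6 of 8 members lower (median log2 fold change -1.28) and the inner ring 4 of 5 (median -0.89), against 2 of 3 FG proteins (-0.66), 3 of 4 at the cytoplasmic face (-0.35), 2 of 3 of the basket (-0.43) and 1 of 3 of the membrane ring (-0.48). Nup85, in the short arm of the Y, had means of 72.0 ± 16.4 early and 30.3 ± 3.5 late. Library by library it stood at 70.6 and 83.8 in ENR+CV, at 84.5, 49.4, 30.1, 26.0 and 32.6 at days 0.25 to 4, and at 28.9 and 33.6 at day 6, a log2 fold change of -1.32 ± 0.17. The early libraries were all above the late ones. Nup107, in the stem of the Y, stood at 48.2 and 49.4 in ENR+CV, at 53.2, 26.8, 22.2, 22.5 and 18.3 at days 0.25 to 4, and at 19.9 and 18.3 at day 6 (-1.23 ± 0.20). The day 1 library was close to the late ones. Other Y members called lower were Nup133 (-1.48), Nup43 (-1.41), Nup37 (-1.39) and Nup160 (-0.80), while Seh1l (-0.47) and Sec13 (0.09), which also coats vesicles of the secretory pathway, were not called.

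In the inner ring, Nup93, which links its subcomplexes, stood at 67.1 and 59.5 in ENR+CV, at 50.7, 27.5, 22.6, 22.0 and 17.9 at days 0.25 to 4, and at 15.6 and 22.3 at day 6 (-1.47 ± 0.25). Nup205, a large scaffold protein bound to Nup93, stood at 109 and 80.2, then 99.3, 65.8, 41.9, 49.1 and 38.2, then 35.1 and 44.2 (-1.16 ± 0.18). Both had late libraries wholly below the early ones. Its paralog Nup188 stood at 51.1 and 55.7, then 59.2, 45.9, 35.6, 35.0 and 38.2, then 27.1 and 39.3 (-0.67 ± 0.15). Nup155 fell (-0.89), and Nup35 was not called (-0.65). Nup62, the FG protein of the central channel, stood at 49.7 and 78.8 in ENR+CV, at 69.2, 40.3, 34.2, 27.9 and 41.6 at days 0.25 to 4, and at 31.2 and 32.9 at day 6 (-0.90 ± 0.20). Here the day 4 library reached the level of day 1, so the early and late sets overlapped. Nup54 (-0.66), Aaas (-1.07), Nup88 (-0.36), Rae1 (-0.35), Nup153 (-0.57) and Nup50 (-0.43) also fell. Nup98 (-0.30), Nup214 (-0.27), Tpr (-0.14), Nup210 (-0.48) and Pom121 (-0.34) were not called.

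**Figure D1:**
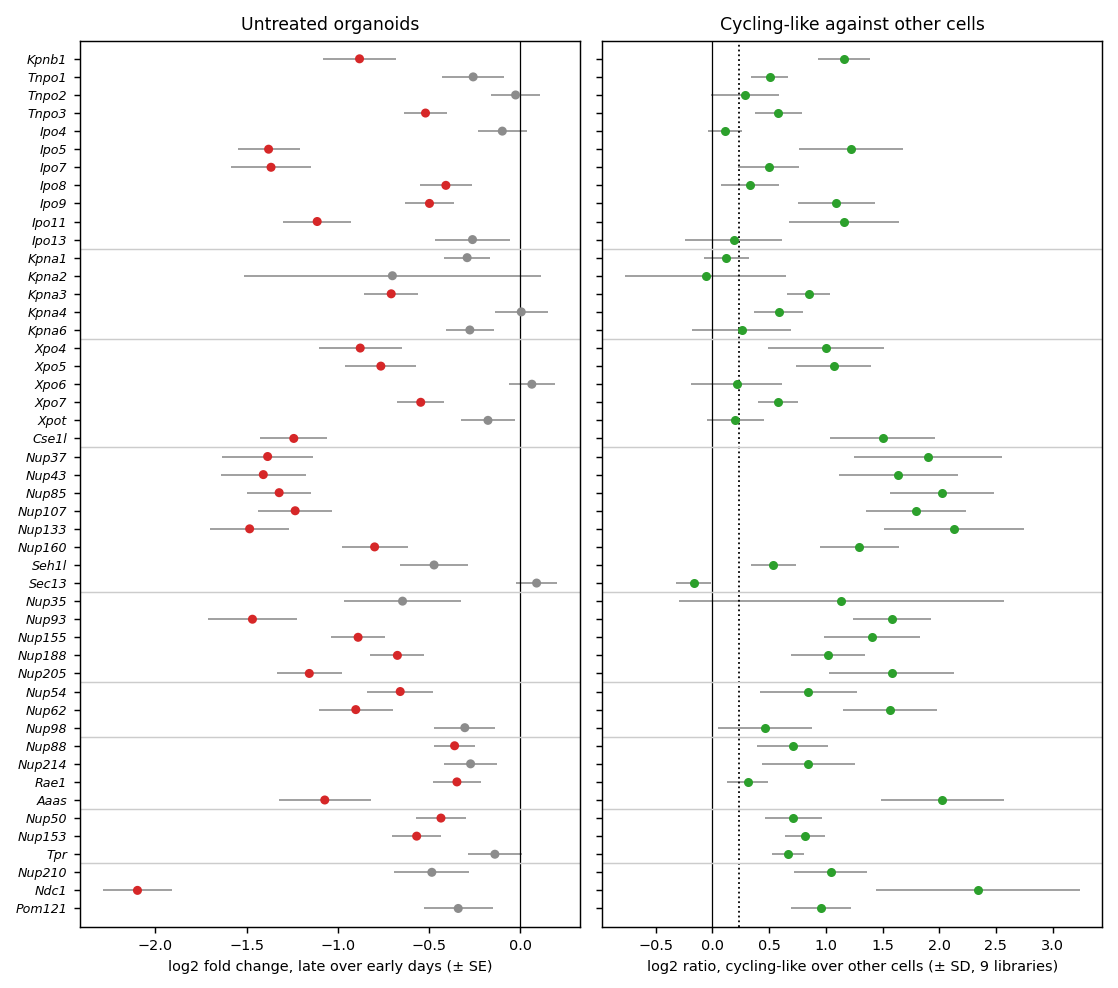
Left, log2 fold change of each member between the 4 late and 4 early libraries without KPT-330 (points, bars ± SE, called members coloured). Right, mean log2 ratio of its level in cycling-like cells over the other cells of the same library (± SD, 9 libraries), with a dotted line at the median of all genes (0.24). Ndc1, with the largest fall (-2.10), lies far to the right in the second panel (2.34), while Ipo7, which also fell steeply, has a ratio of 0.50 there.

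The cell make-up changed over the same days. Clusters were named from marker genes, with 13 members taken out of the genes used for clustering. Cycling-like cells made up 66.3% and 74.0% of the ENR+CV libraries, 71.4% of the control library at day 0.25, 19.0% at day 1 and 3.66% to 6.99% from day 2 on. The summed level of 12 cycling markers was 1868 and 2265 in ENR+CV and 273 to 2580 in the controls, and all 12 markers were called lower in the late libraries (median log2 fold change -2.43). A list of 8 fibroblast, endothelial and immune markers summed to 10.4 to 107 in every library, and 6 tuft markers to at most 6.19. Their part in the falls was not tested.

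In the 9 libraries without KPT-330, 38 of the 48 members had their highest mean level in cycling-like cells, as did 24.8% of the 13370 genes tested in the comparison of late with early libraries. This is a description, since the clusters were made from the same cells. The class levels carry no TMM scaling. Ndc1 stood at 111.5 ± 20.7 (SD over 9 libraries) in cycling-like cells, against 24.6 ± 11.1 in stem-like and 6.69 ± 3.00 (5 libraries) in Paneth-like cells. Kpnb1 had a different order, at 642 ± 107 in cycling-like, 364 ± 38.0 in stem-like, 341 ± 128 in goblet-like, 333 ± 92.0 in enteroendocrine-like (8 libraries), 224 ± 21.9 in Paneth-like (5) and 155 ± 54.3 in enterocyte-like cells. The stem-like, goblet-like and enteroendocrine-like means were within their spread of each other. Nup133 stood at 128 ± 28.2 in cycling-like cells and 41.7 ± 7.78 in stem-like cells, with Paneth-like (13.1 ± 4.30) and enterocyte-like cells (9.88 ± 3.04) lowest.

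The other 10 members had their highest mean in another class, in several of them by less than the spread between libraries. Sec13 was highest in enterocyte-like cells (245 ± 51.2) and goblet-like cells (187 ± 19.4), with cycling-like cells at 152 ± 18.3. Rae1, an mRNA export factor that binds Nup98, was about equal in stem-like (54.3 ± 10.7) and cycling-like cells (52.8 ± 6.91). Xpo6 stood at 129 ± 15.5 in enteroendocrine-like (8 libraries) and 92.3 ± 25.9 in cycling-like cells. For Ipo13, Kpna1 and Nup88 (highest mean in enteroendocrine-like), Kpna2 and Xpot (goblet-like), Tnpo2 (stem-like) and Ipo4 (Paneth-like), the highest mean was within the spread of the next class. Against the other cells of the same library, the median log2 ratio of cycling-like cells was 0.85 over the members and 0.24 over all genes, and 35 members were higher in cycling-like cells of all 9 libraries, as were 20.7% of the 13370 genes. The ratio was largest for Ndc1 (2.34 ± 0.90), Nup133 (2.13 ± 0.62), Aaas (2.03 ± 0.54) and Nup85 (2.02 ± 0.46). It was 1.16 in the median of the 30 members that fell and 0.37 in that of the other 18. The fall and the ratios come from the same 9 libraries, so this contrast is a description and no test.

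**Figure D2:**
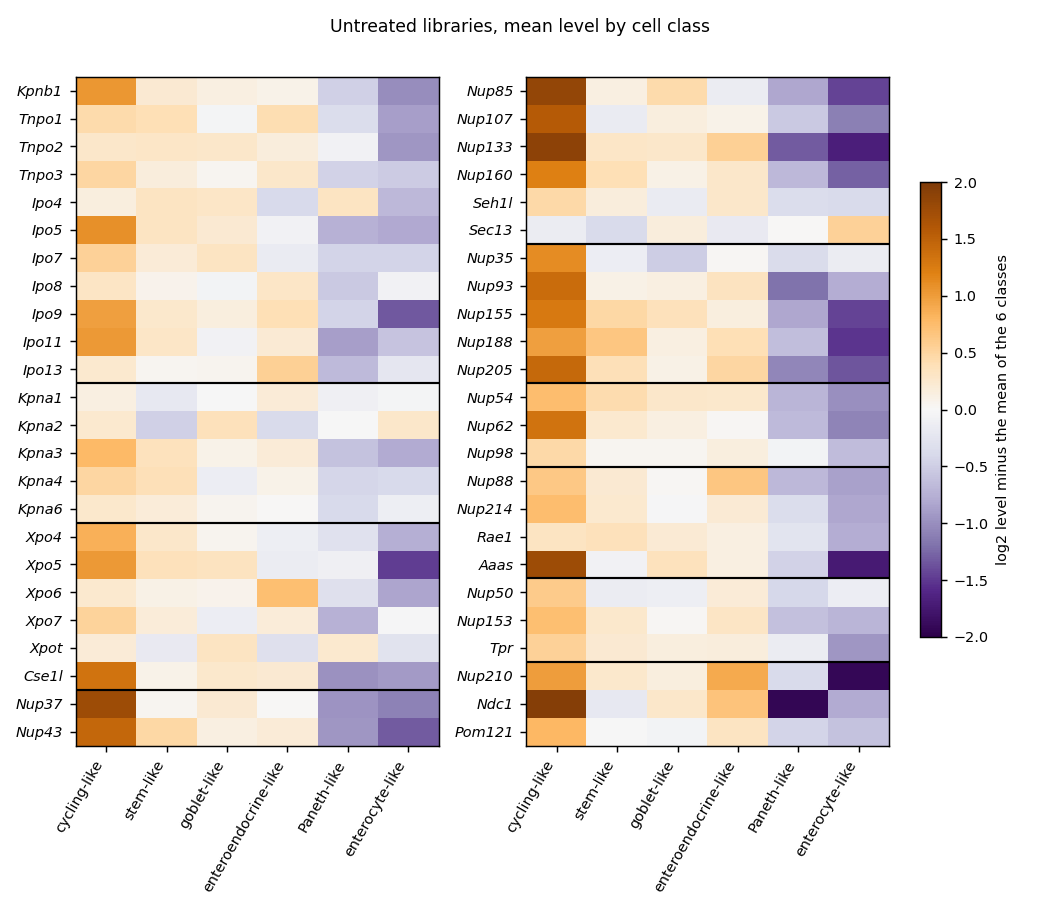
Mean level of each member by cell class in libraries without KPT-330, as the log2 level minus the gene's mean over the 6 classes. Levels are CPM of the class's own UMIs, without TMM scaling. The cycling-like column is the highest for 38 of 48 members, and Sec13 is highest in enterocyte-like cells.

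Compared within a class, few members were called. In stem-like cells (4 early and 4 late libraries, at least 50 cells each), 4 of 46 members tested were called, where 15.1% of genes were (8.3% lower, 6.81% higher), and the median member log2 fold change was -0.06. Ipo7 (-1.39 ± 0.19), Ndc1 (-1.26 ± 0.28) and Ipo5 (-0.78 ± 0.19) were lower, and Kpna4, an importin alpha, was higher (0.75 ± 0.19). In cycling-like cells (4 against 4, at least 54 cells) 1 of 47 was called, Ipo7 (-1.14 ± 0.24), where 18% of genes were (9.23% lower), and the member median was -0.00. Ndc1 had a log2 fold change of 0.04 ± 0.18 and Nup133 of 0.26 ± 0.17 in cycling-like cells. These within-class comparisons were added after the data had been seen.

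KPT-330 raised its target's transcript on every day. Xpo1 stood at 154 in the control and 459 in the KPT-330 library at day 0.25, and its log2 fold change over all days was 1.50 ± 0.09 (adjusted p = 7.76e-07). With the day as a factor and 7 against 8 libraries, 16 of the 48 members were called (33.3%), where 28.6% of the 12812 genes tested were, so the share of members called was near the background. Of the 16, 12 were lower (25% of members, against 14.2% of genes) and 4 higher (8.33% against 14.4%). The median log2 fold change was -0.10 over the members and -0.00 over all genes. The split depended on the scaling. Scaled by library totals alone, 30 members were called lower and 1 higher. Of the 12812 genes, 4900 were then lower and 470 higher, with the median of all genes at -0.27. With each cell weighted the same, 28 members were lower and none higher. Of the genes, 4427 were lower and 501 higher, with that median at -0.15. The changes below are thus relative to TMM scaling, under which the median gene stayed at -0.00. Without day 3, without day 4 or without the first KPT-330 library of day 6 the count was 8, 9 and 9.

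By role, 4 of 11 importin beta family importers, 4 of 8 Y complex proteins, 2 of 3 membrane ring proteins, 1 of 5 inner ring proteins and 1 of 5 importin alphas were lower. The 4 higher members were Kpna2, on very few UMIs, and Xpo6, Rae1 and Pom121. None of the 3 FG proteins of the central channel and none of the 3 basket proteins was called. The KPT-330 library lay below its control on all 6 days in 12 members and above it on all 6 in 2, Rae1 and Xpo6, where days with several libraries were averaged. Of the 12812 genes tested, 13.4% lay below on all 6 days and 11.8% above.

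**Figure D3:**
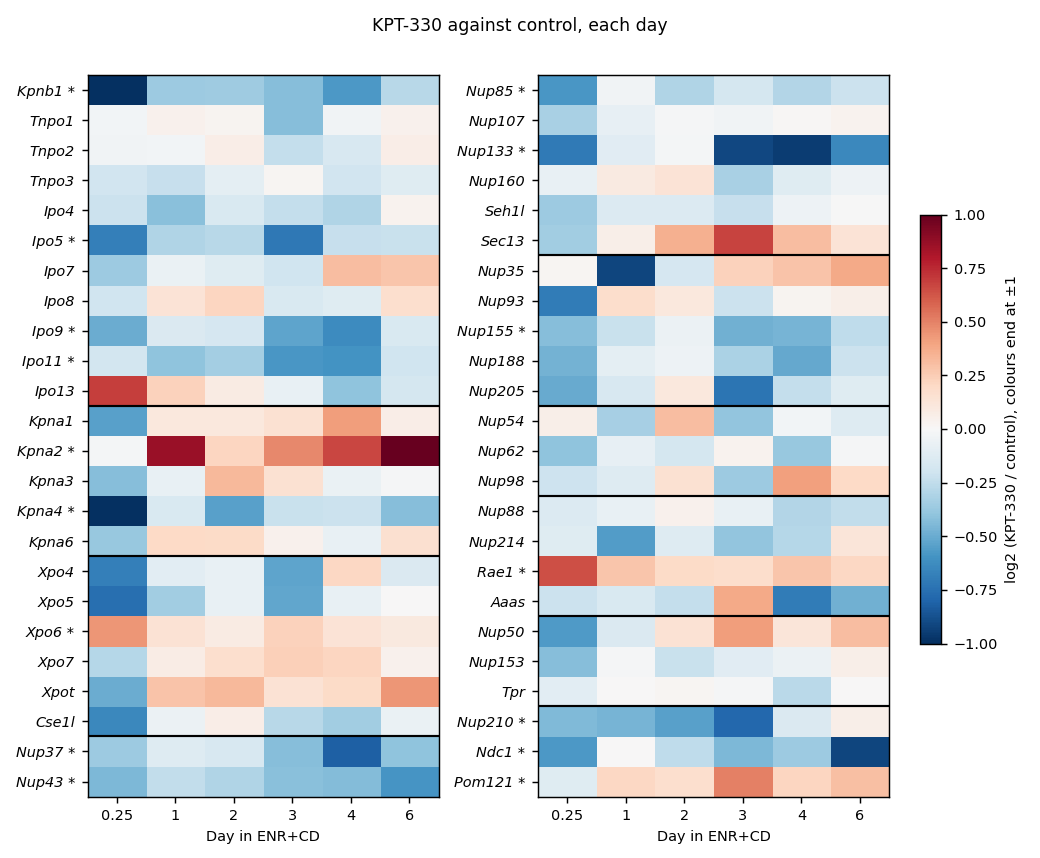
log2 ratio of KPT-330 over control for each member (rows, by role) on each day in ENR+CD (columns), from levels with 1 CPM added. Asterisks mark the 16 members called over all days. Kpnb1 is blue on all days and Rae1 red on all days.

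Kpnb1, which carries most importin alpha cargo and also acts in spindle assembly, had levels of 678, 341, 239, 250.5 and 266 in the controls at days 0.25, 1, 2, 3 and 4, and of 277 and 254 at day 6. With KPT-330 it stood at 315, 264 and 187 at days 0.25, 1 and 2, at 205 and 167 at day 3, at 178 at day 4 and at 220.1 and 217 at day 6. Every KPT-330 library was below every control library of its day, and the gap was widest at day 0.25. The log2 fold change was -0.46 ± 0.10 (adjusted p = 0.00559). The gene (chr11:97159714-97187881, mm10, minus strand) was singled out by the study from early stem and cycling cells of these same libraries, so its fall here is not independent evidence of that choice.

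Ipo5 stood at 287, 176, 93.5, 99.4 and 88.6 in the controls at days 0.25 to 4 and at 92.2 and 95.4 at day 6. With KPT-330 it stood at 179, 143 and 77.1 at days 0.25, 1 and 2, at 59.2 and 60.9 at day 3, at 75.2 at day 4, and at 79.9 and 80.6 at day 6. It was lower on each day, with a log2 fold change of -0.39 ± 0.08 (adjusted p = 0.00536). Ipo11, an importer of ubiquitin-conjugating enzymes, stood at 35.6, 35.5, 26.9, 26.0 and 19.3 in the controls at days 0.25 to 4 and at 21.1 and 20.6 at day 6. With KPT-330 it stood at 31.3, 26.6 and 21.0 at days 0.25, 1 and 2, at 16.5 and 17.5 at day 3, at 12.4 at day 4, and at 16.9 and 19.1 at day 6. It was again lower on each day (-0.37 ± 0.09, adjusted p = 0.00707). Ipo9, an importer of histones and actin, had log2 ratios of -0.50, -0.15, -0.17, -0.53, -0.63 and -0.16 from day 0.25 to day 6 (-0.33 ± 0.09, adjusted p = 0.0205). The importers not called were Tnpo1 (-0.05), Tnpo2 (-0.03), Tnpo3 (-0.11), Ipo4 (-0.16), Ipo7 (0.02), Ipo8 (0.04) and Ipo13 (0.06), so Ipo7, which fell steeply with differentiation, did not pass the test for KPT-330.

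Among the importin alpha adaptors, Kpna4 was the one called lower. Its levels were 76.9, 59.4, 61.4, 59.8, 62.4, 75.7 and 65.9 in the controls in order of day. With KPT-330 they were 37.7, 53.2 and 41.8 at days 0.25, 1 and 2, 50.7 and 51.6 at day 3, 53.7 at day 4, and 50.5 and 54.3 at day 6. The highest KPT-330 library was below the lowest control library, and the log2 fold change was -0.41 ± 0.10 (adjusted p = 0.00824). Kpna1 (0.08), Kpna3 (0.01) and Kpna6 (0.06) were not called.

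Kpna2, the importin alpha best known from proliferating cells, was called higher (1.42 ± 0.41, adjusted p = 0.0197) but on very few UMIs. It passed the filter on low counts only through the KPT-330 libraries of day 6, where its level was highest. Its call, counted above, is therefore no support for a rise. It could be tested in 11 of the 18 alternative settings and was called in 10. The controls held 9, 0, 2, 4, 1, 6 and 3 UMIs of it and the KPT-330 libraries 5, 3, 4, 8, 6, 3, 8 and 6. Its log2 ratio was -0.02 at day 0.25 and between 0.21 and 1.01 on the later days. In the mm10 annotation the last 500 bases of the Kpna2 transcript match Gm10184, annotated as a protein-coding gene, at 100% identity over 494 bases, and those of Nup35 match Gm4353, also annotated as coding, at 99% over 500. The copies themselves hold 0 to 5 and 0 to 4 UMIs a library. The levels of Kpna2 and Nup35 are therefore uncertain, and where reads shared with the copies went was not tested. The other 46 members had no match of at least 95% over 200 bases.

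The 4 import receptors whose fall was called under each of 18 alternative settings were Kpnb1, Ipo5, Ipo11 and Kpna4. The 250 bases before the RefSeq gene starts (GRCm38.p6) are shown for these 4, chosen from the 12 members lower with KPT-330 on all 6 days. Capitals mark matches to any of 6 motifs searched on both strands, which in these windows are CCAAT or its reverse complement ATTGG, the box bound by NF-Y.

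Kpnb1, chr11:97187893-97188142, minus strand: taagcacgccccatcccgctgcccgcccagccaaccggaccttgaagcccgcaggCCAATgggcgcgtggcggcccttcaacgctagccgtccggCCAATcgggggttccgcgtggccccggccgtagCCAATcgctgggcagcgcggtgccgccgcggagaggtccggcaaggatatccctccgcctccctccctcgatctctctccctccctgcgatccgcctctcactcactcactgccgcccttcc
Ipo5, chr14:120910944-120911193, plus strand: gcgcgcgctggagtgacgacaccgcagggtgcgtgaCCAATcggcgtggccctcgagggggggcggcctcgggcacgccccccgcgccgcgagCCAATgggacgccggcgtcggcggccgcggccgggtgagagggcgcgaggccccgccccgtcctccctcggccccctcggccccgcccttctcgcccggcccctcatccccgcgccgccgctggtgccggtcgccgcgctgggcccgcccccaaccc
Ipo11, chr13:106936959-106937208, minus strand: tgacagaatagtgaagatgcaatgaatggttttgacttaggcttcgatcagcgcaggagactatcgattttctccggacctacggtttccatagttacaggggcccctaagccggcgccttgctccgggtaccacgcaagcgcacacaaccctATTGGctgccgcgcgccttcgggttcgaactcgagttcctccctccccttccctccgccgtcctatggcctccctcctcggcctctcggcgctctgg
Kpna4, chr3:69127093-69127342, minus strand: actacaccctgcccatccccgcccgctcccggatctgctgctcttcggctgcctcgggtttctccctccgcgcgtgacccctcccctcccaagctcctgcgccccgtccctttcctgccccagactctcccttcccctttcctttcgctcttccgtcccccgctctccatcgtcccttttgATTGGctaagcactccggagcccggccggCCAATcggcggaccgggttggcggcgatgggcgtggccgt

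Counted from the start, the first base of CCAAT lies at -195, -155 and -122 in Kpnb1 and at -214 and -157 in Ipo5, and the reverse form lies at -97 in Ipo11. Kpna4 has it at -40 and the reverse form at -69. Over windows of 250 bases before to 50 after the start, 18 of the 38 members with a promoter in the table (47.4%) hold CCAAT on either strand, as do 39.3% of tested genes and 37.9% of 27025 promoters. Of the 10 members called lower with KPT-330 that have a promoter there, 7 hold it, as do 2 of the 4 called higher. Of the 24 with a promoter that were called lower in late libraries without KPT-330, 10 hold it. Nup133, also lower with KPT-330 on all 6 days and called in each of the 18 settings, holds none of the 6 motifs. The other motifs were TTTGAA (cell cycle homology region, 26.3% of members against 11.5% of tested genes), CCGGAAG (ETS factors, 23.7% against 18.3%), CACGTG (E-box, 18.4% against 10.4%), that of NRF1 (15.8% against 10.6%) and TTTCCCGC (E2F, 2.63% against 2.04%). TTTGAA lay in 3 of the 24 members called lower in late libraries without KPT-330. It lay in 2 of the 10 called lower with KPT-330 and in 2 of the 4 called higher. A match is a description of these letters and not of binding.

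Of the 6 exporters 1 was called with KPT-330. Xpo6 was higher (0.20 ± 0.07, adjusted p = 0.036), at 97.3 against 71.4 in the control at day 0.25, with log2 ratios of 0.14, 0.08, 0.23, 0.14 and 0.10 on days 1 to 6. Its sign turned under library totals and with cells weighted equally (-0.069 and -0.072), and its call held in 7 of 18 alternatives. Xpo4 (-0.24), Xpo5 (-0.27), Xpo7 (0.10), Xpot (0.21) and Cse1l (-0.19) were not called.

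Among Y complex proteins Nup133, which tethers the ring to the nuclear membrane, fell most. The controls stood at 77.8, 40.8, 28.0, 29.6 and 26.4 at days 0.25 to 4 and at 21.6 and 29.5 at day 6. With KPT-330 the levels were 47.3, 37.7 and 27.7 at days 0.25, 1 and 2, 17.4 and 13.2 at day 3, 13.2 at day 4, and 14.4 and 17.7 at day 6. Days 1 and 2 differed little, and the gap was wide at day 0.25 and from day 3 on (-0.57 ± 0.13, adjusted p = 0.00749). Nup43, Nup37 and Nup85 were lower on every day, with log2 fold changes of -0.44 ± 0.14 (adjusted p = 0.0294), -0.39 ± 0.13 (0.0415) and -0.25 ± 0.09 (0.0483). Their log2 ratios ranged from -0.59 to -0.24 for Nup43, from -0.82 to -0.13 for Nup37 and from -0.59 to -0.04 for Nup85. Nup107 (-0.05), Nup160 (-0.06), Seh1l (-0.13) and Sec13 (0.23) were not called. Calls of Nup43, Nup37 and Nup85 held in 14, 9 and 8 of 18 alternative settings.

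In the inner ring, Nup155, a scaffold protein near the membrane, fell by 0.31 ± 0.09 on the log2 scale (adjusted p = 0.0171), with ratios between -0.48 and -0.06 by day. Nup35 (0.10), Nup93 (-0.07), Nup188 (-0.25) and Nup205 (-0.27) were not called. The membrane ring was split. Ndc1 stood at 82.2, 45.7, 25.3, 16.9 and 12.9 in the controls at days 0.25 to 4 and at 18.1 and 16.4 at day 6. With KPT-330 it stood at 54.7, 45.9 and 21.1 at days 0.25, 1 and 2, at 15.4 and 8.77 at day 3, at 9.79 at day 4, and at 6.71 and 10.6 at day 6. It was lower on every day but day 1 (-0.46 ± 0.14, adjusted p = 0.0277). Nup210, a membrane nucleoporin, was lower on days 0.25 to 4, with ratios between -0.78 and -0.14, but not at day 6 (0.06), for a log2 fold change of -0.35 ± 0.12 (adjusted p = 0.0466) called in 9 of 18 alternatives.

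Pom121, the third membrane protein, rose by 0.26 ± 0.08 on the log2 scale (adjusted p = 0.036). The controls stood at 75.9, 52.7, 55.7, 47.96 and 59.0 at days 0.25 to 4 and at 61.0 and 48.2 at day 6. With KPT-330 the levels were 69.6, 61.1 and 62.8 at days 0.25, 1 and 2, 71.9 and 64.6 at day 3, 68.5 at day 4, and 68.4 and 66.9 at day 6. All KPT-330 libraries from day 1 on were above their controls, the sign turned under library totals (-0.0098), and the call held in 8 of 18 alternatives. Rae1 rose by 0.31 ± 0.07 (adjusted p = 0.00944). It stood at 49.1, 37.5, 38.3, 40.7 and 38.9 in the controls at days 0.25 to 4 and at 34.2 and 37.2 at day 6, and with KPT-330 at 77.2, 45.6, 44.0, 43.2 and 49.1 (both at day 3), 47.4, 41.5 and 41.4. Each KPT-330 library was above the controls of its day, and under library totals the log2 fold change was 0.01 and not called. The members at the cytoplasmic face Nup88 (-0.13), Nup214 (-0.18) and Aaas (-0.22) were not called, nor were the FG proteins Nup54 (-0.09), Nup62 (-0.13) and Nup98 (0.03) and the basket proteins Nup50 (0.12), Nup153 (-0.09) and Tpr (-0.03). Over the 32 members not called, log2 fold changes ran from -0.27 to 0.23, with standard errors of 0.07 to 0.25.

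**Figure D4:**
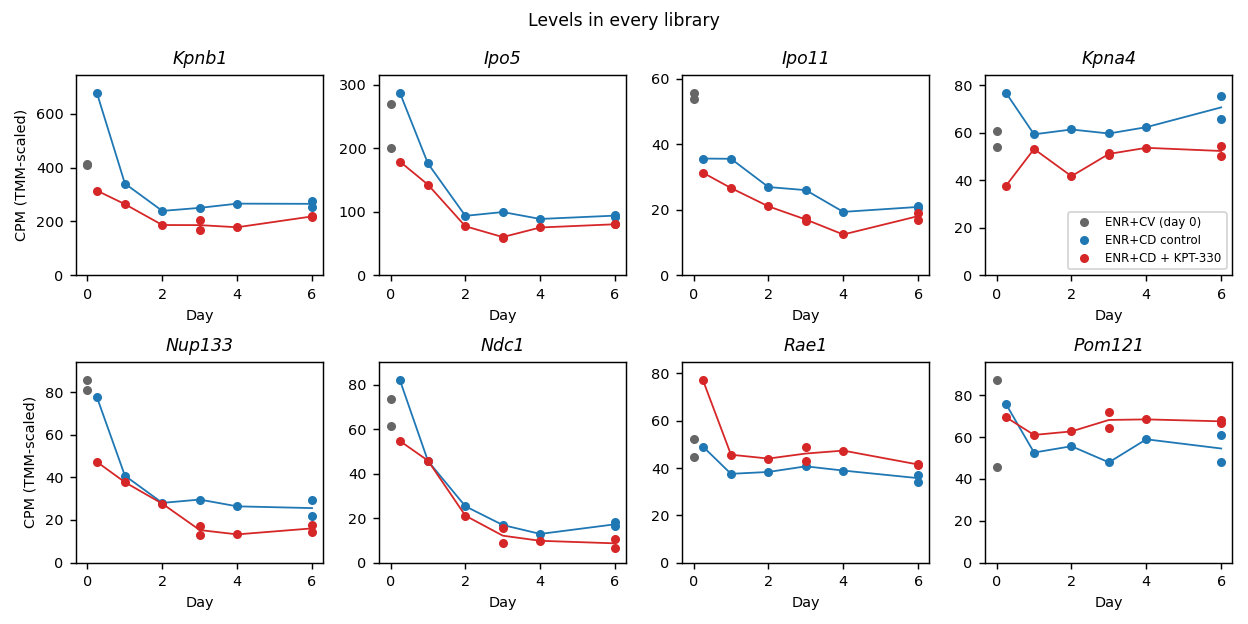
Level (TMM-scaled CPM, linear axis from 0) by day of 8 members in every library. Points are libraries and lines join the means of each day. Kpna4 with KPT-330 (37.7 to 54.3) lies below all controls (59.4 to 76.9), and Ndc1 falls in both arms.

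The fall was tested in the early and late days separately. In the early days each arm had 1 library a day. The SEs and p-values there measure how the difference between arms varied from day to day. At days 0.25 to 2 (3 libraries against 3), 3 of 47 members were called, all lower, where 5.24% of 11956 genes were called in either direction and 2.12% lower. They were Nup210 (-0.48 ± 0.10, adjusted p = 0.0276), Kpnb1 (-0.60 ± 0.14, 0.0392) and Kpna4 (-0.57 ± 0.14, 0.0468), and the member median was -0.18. None was called with each cell weighted the same, and 7, 1 and 5 were called without day 0.25, 1 and 2.

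At days 3 to 6 (4 against 5), 10 of 48 members were called (20.8%), where 24.8% of genes were (12.4% lower, 12.3% higher). Lower were Nup133 (-0.82 ± 0.15, adjusted p = 0.00546), Kpnb1 (-0.38), Ipo11 (-0.43), Ipo5 (-0.38), Kpna4 (-0.30), Nup155 (-0.38) and Ndc1 (-0.66). Higher were Kpna2 (1.76), Pom121 (0.36) and Nup50 (0.32), a basket-associated protein that helps to release importin cargo. Kpna2 again passed the filter on low counts only through the KPT-330 libraries of day 6, so its call is no support for a rise. Scaled by library totals 32 members were lower and 1 higher. Of the 12516 genes, 4999 were then lower and 317 higher, with the median of all genes at -0.37. With each cell weighted the same 30 members and 4645 genes were lower. Pom121 (-0.011) and Nup50 (-0.059) turned sign under library totals. Without day 3 or without day 4, 1 member was called, and without the second KPT-330 library of day 3 or the first of day 6, 2 were. Without the first KPT-330 library of day 3 there were 5, and without the second control of day 6 there were 3.

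The late minus early difference of the KPT-330 effect was called by edgeR in none of the members and in 0 of 12812 genes. At an unadjusted p under 0.05 there were 1333 of the 12812 genes and 3 of the 48 members, a smaller share. The 3 were Nup50 (0.51), Nup133 (-0.52) and Ipo13 (-0.53), which is no support for a difference in them. DESeq2 also called no member.

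Cycling cells were fewer with KPT-330. Their share of cells was 71.4% in the control and 44.6% in the KPT-330 library at day 0.25, 19.0% and 13.2% at day 1, and 6.99% and 3.16% at day 2. From day 3 on it was 3.66% to 5.27% in the controls and 0.292% to 1.51% with KPT-330. Of the 12 cycling markers 9 were called lower and none higher (median log2 fold change -0.85). The summed level of these markers was 2580 against 1938 at day 0.25 and, at day 3, 273 against 204 and 65.8. The 12 members called lower with KPT-330 had a median log2 ratio of cycling-like over other cells of 1.31, from 0.58 to 2.34, and each was higher in cycling-like cells of all 9 libraries without KPT-330. For the 4 called higher the median was 0.26. Over all 48 members it was 0.85, and 35 of them were higher in cycling-like cells of all 9 libraries, as were 20.7% of 13370 genes. The control libraries entered both the calls and these ratios, so the ratios are a description. The part of the cycling cells in the calls with KPT-330 was not tested. Paneth-like cells were 49.4% and 43.0% of the controls and 67.8% and 60.7% of the KPT-330 libraries at day 6.

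Within single classes fewer members were called. In cycling-like cells, compared at days 0.25 to 2 (3 against 3 libraries of at least 20 cells), 0 of 46 members were called by edgeR, and none of the 39 to which DESeq2 gave an adjusted p, where edgeR called 0.316% of 9175 genes. At an unadjusted p under 0.05 edgeR had 886 of the 9175 genes and 6 of the 46 members. The 6 were Rae1 (0.59), Kpnb1 (-0.47), Xpo5 (-0.52), Ipo13 (0.59), Xpo6 (0.36) and Nup210 (-0.34). Kpnb1 stood at 843, 651 and 589 CPM of the class's UMIs in the control cycling-like cells and at 439.5, 614 and 455 with KPT-330, lower on each day. Without day 1, 1 member was called.

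In stem-like cells (7 against 7), 3 of 46 members were called (6.52%), where 4.21% of 9717 genes were (1.48% lower, 2.73% higher). Kpnb1 had 404, 324, 362, 364, 384, 368 and 412 CPM in the controls, in order of day, and 246, 229.8, 248, 272, 214, 234 and 425 with KPT-330. All but the day 6 library lay below all controls (-0.42 ± 0.11, adjusted p = 0.0173). Ipo5 stood at 231, 194, 156, 167, 135, 129.6 and 135 in the controls and at 167, 160.0, 82.0, 68.1, 79.3, 113 and 97.5 with KPT-330 (the fourth and the fifth both at day 3), lower on each day (-0.59 ± 0.12, adjusted p = 0.0022). Pom121 stood at 41.0, 46.9, 74.2, 40.2, 81.2, 70.2 and 72.4 in the controls and at 48.8, 73.2, 86.1, 70.9, 85.4, 92.1 and 97.5 with KPT-330, higher on each day (0.53 ± 0.14, adjusted p = 0.0187). Without day 3 none of the 3 was called, and without the second KPT-330 library of day 3, 1 was. DESeq2 did not call Pom121 there (adjusted p = 0.0723). Stem-like cells came from cluster 2 (79.6% of control cells) and cluster 10 (20.4%), in shares of 54.5% and 45.5% with KPT-330, and those of cycling-like cells moved from 40.4% and 59.6% in clusters 3 and 5 to 64.7% and 35.3%. The part of these shares in the differences within classes was not tested.

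In Paneth-like cells (5 against 6), 1 of 46 was called, where 4.11% of genes were (2.26% higher). This was Pom121, at 51.4, 42.8, 47.3, 50.05 and 32.7 in the controls and at 69.8, 60.8, 59.3, 55.5, 49.4 and 49.7 with KPT-330 (0.47 ± 0.12, adjusted p = 0.0371). It was not called without day 2, 3 or 4, without the second KPT-330 library of day 3, or without the second control or first KPT-330 library of day 6. With library totals Pom121 was not called (0.31, adjusted p = 0.145) and Kpnb1 was called lower (-0.42, adjusted p = 0.0161). Leaving out the second KPT-330 library of day 6, 2 members were called. Cluster 0 held 41.6% of these cells in the controls and 61.6% with KPT-330, and cluster 1 the rest. In enterocyte-like cells (7 against 8), 1 of 43 was called, where 3.01% of genes were (1.73% lower). Ipo4, an importer of histones, had 8 to 99 UMIs a library in the controls and 1 to 92 with KPT-330, and stood at 24.8 to 44.2 against 5.84 to 25.7 CPM (-0.74 ± 0.17, adjusted p = 0.0227). Without day 2, 3 or 4 no member was called, and without either KPT-330 library of day 6, 2 were. Clusters 6 and 8 held 47.6% and 52.1% of the control cells and 53.2% and 38.2% of the KPT-330 cells. Cluster 13 held 0.353% and 8.58%, and 82.7% of its cells came from 1 library. In enteroendocrine-like cells (6 against 7), 0 of 44 were called by edgeR, where 2.01% of genes were. At an unadjusted p under 0.05 there were 1325 of the 9585 genes and 3 of the 44 members, a smaller share. The 3 were Kpna6 (0.41), Kpna3 (0.37) and Pom121 (0.30). Clusters 7 and 9 held 61.9% and 38.1% of the control cells and 45.0% and 55.0% of the KPT-330 cells. The log2 fold change of Kpnb1 was negative in each of the 5 classes, at -0.47, -0.42, -0.26, -0.45 and -0.18 in cycling-like, stem-like, Paneth-like, enterocyte-like and enteroendocrine-like cells, and was called in stem-like cells. It was also called with no filter on low counts in cycling-like and enterocyte-like cells, and with library totals or the replicate block in Paneth-like cells. Whether it differs between classes was not tested.

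**Figure D5:**
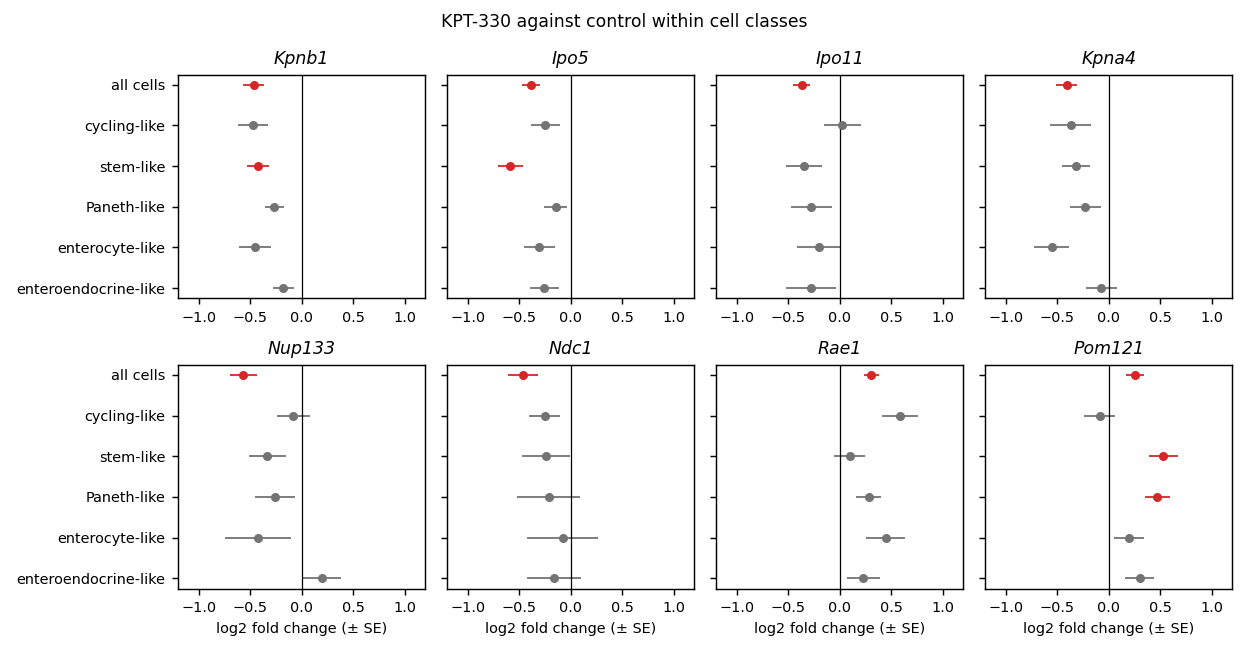
log2 fold change (± SE) of 8 members with KPT-330 in all cells and within 5 cell classes, red where called. Kpnb1 lies left of 0 in each class (-0.47 to -0.18), while Pom121 is called to the right of 0 in stem-like (0.53) and Paneth-like cells (0.47).

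Genes that work with the members were taken from lists that share no member with them. Of 8 genes of the Ran cycle 2 were called lower with KPT-330, Rcc1, the exchange factor that loads Ran with GTP (-0.54 ± 0.10), and Ranbp1 (-0.37 ± 0.09), and Xpo1 alone was higher. Of 6 genes tested from a list of other transport and pore genes, 1 was lower. It was Senp1 (-0.29 ± 0.08), a SUMO protease and neither a transport receptor nor a structural pore protein. Of 20 genes of messenger RNA export 6 were lower, with Ddx39b (-0.51), Thoc1 (-0.31), Thoc5 (-0.26), Alyref (-0.39) and Thoc3 (-0.25) the lowest in p. Of all 12812 genes tested with KPT-330, 14.2% were called lower. In the late libraries without KPT-330, 6 of 8, 3 of 6 and 13 of 20 genes of these lists were called lower, as were 24.6% of the 13370 genes tested.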

How the data were processed

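The deposited files hold UMI counts per gene and cell, 1 library a file. Per the study's methods and the labels, the authors demultiplexed with bcl2fastq, aligned to mm10 with STAR, collapsed UMIs with the Drop-seq pipeline, and removed poor barcodes and doublets before naming the kept cells. Counts were summed per library, and per library and class (at least 20 cells), over those cells. edgeR 4.0.16 (R 4.3.3) fitted all genes passing filterByExpr (minimum count 10) by quasi-likelihood after TMM scaling, with day as a factor in drug comparisons, and Benjamini-Hochberg adjustment at 0.05 over all genes. Alternatives used DESeq2 1.42.0, limma 3.58.1 (mean UMIs per 10000, log2 after adding 0.1), other scalings, filters and clusterings, a replicate block, and each library or day left out. Scripts were tested on simulated data. Cells were clustered with Seurat 5.3.0 and sctransform 0.4.2 (3000 variable genes less 13 members, 9 components, 20 neighbours, resolution 0.45, 14 clusters), 1 cluster staying unnamed. Median depth was 2676 to 8463 UMIs a cell, and SEs cover the spread between libraries.

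Members and lists were chosen with earlier results of these data known. Named were members called with KPT-330 over all days (up to 15, by p, with Nup85 as the 16th under the next rule), those called in late against early libraries without KPT-330 (up to 10 more), and every other member by its fold change.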

Additional observations from a re-analysis of the deposited data

How the results depend on the processing

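Over all days, 31 members were called with library totals, a scaling chosen after the data were seen, and 28 with each cell weighted the same, against 16. Genes called were 5370, 4928 and 3661 of 12812, in the same order. At days 3 to 6 these settings gave 33 and 30 members, against 10, and 5316 and 5021 of 12516 genes, against 3099. At days 0.25 to 2 there were 5 with no filter on low counts, 1 with DESeq2 and 0 with each cell weighted the same, against 3. For untreated organoids, 4 were called within stem-like and 1 within cycling-like cells, both added after the data were seen, against 30. Within cycling-like cells 1 was called with no filter. In Paneth-like cells 0 were called with DESeq2, 3 with the replicate block and 0 at resolution 0.8. With library totals the 1 call there was Kpnb1, lower, in place of Pom121. In enterocyte-like cells 3 with no filter. Leaving out 1 library or day gave 8 to 18 members over all days, 1 to 7 at days 0.25 to 2, 1 to 13 at days 3 to 6, 0 to 0 for their difference, 27 to 31 for untreated days, and 0 to 1, 0 to 3, 0 to 2, 0 to 2 and 0 to 0 within cycling-like, stem-like, Paneth-like, enterocyte-like and enteroendocrine-like cells. Signs turned for Xpo6 (-0.069 with library totals and -0.072 with equal weights) and Pom121 (-0.0098 with library totals) over all days, and at days 3 to 6 for Nup50 (-0.059 and -0.048) and Pom121 (-0.011 with library totals). Scaling by totals moved the median of all genes, and the cause of the other changes was not tested. Of the values of single members under alternatives other than left-out libraries, 426 kept direction and call, 43 lost the call, 4 gained it and 6 turned sign. With the replicate block over all days 15 members were called. The labels do not say what replicate numbers stand for. At day 6 the difference between libraries 1 and 2 had a correlation of 0.63 between the arms over 7134 genes, a hint from the data and not the design. At days 0.25 to 2, with 1 library a day and arm, the day factor of the fit already pairs the arms, so a replicate block adds nothing to it.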
